A study of Culex quinquefasciatus with 12 samples.

Results

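The transcripts described here encode 8 solute carriers of Culex quinquefasciatus, the southern house mosquito: 7 named for mitochondria and 1, pmp34, named for the peroxisomal membrane. They were chosen by gene identifier, because the study names them, and they make up 8 of the 19751 genes and 20 of the 43803 gene spots on the array. The study picked them as regulated in these same samples, so their counts of calls below are a description and not independent evidence of a direction. Midguts were dissected from third-instar larvae of the JHB strain that had been starved for 3 h. Toxin-treated larvae had then been fed BinA and BinB, the binary toxin of Lysinibacillus sphaericus made in Escherichia coli, at a 1:1 molar ratio and a total of 80 ng/ml, a dose that kills most larvae, for 6, 12 or 18 h. Untreated larvae of the same strain and stage received no toxin and were taken at the same times. Each time point had 4 biological replicates, each a pool of 20 larvae, and only larvae still alive were taken, so the values describe survivors. Each of the 12 Agilent two-colour arrays compared toxin-treated RNA in Cy5 with untreated RNA in Cy3.

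Mitochondrial carriers are a family of inner membrane proteins that exchange metabolites between the cytosol and the mitochondrial matrix. Carnitine/acylcarnitine carriers bring fatty acids, bound to carnitine, into the matrix for oxidation. The 2-oxoglutarate/malate carrier is part of the malate shuttle, which moves reducing equivalents across the membrane, and the dicarboxylate and oxodicarboxylate carriers pass intermediates such as malate, phosphate and 2-oxoadipate. Pmp34 belongs to the same protein family but lies in the peroxisome, where in humans and yeast its counterparts import ATP and other nucleotide cofactors. The midgut epithelium is the tissue on which Bin toxin acts in Culex larvae.

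Values are log2 ratios of toxin over untreated, so a negative value is a lower level in toxin-treated midgut. A gene was called when the adjusted p of limma's moderated test (Benjamini-Hochberg over all 19751 genes) was under 0.05 and the log2 value was at least 0.75 in size, which is 1.68-fold. All 20 spots of the 8 genes were well above background in both channels on all 12 arrays and none was saturated, so no carrier was lost to a filter. The dyes were never swapped. A dye bias of a gene therefore adds to its ratio at each time, and cancels between times if it is constant. The 4 arrays of a time point shared a slide, so slide and time cannot be told apart. In bulk midgut, fewer cells of a type and less RNA per cell cannot be told apart either.

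On 3 arrays, replicate 3 at 6 h, replicate 2 at 12 h and replicate 3 at 18 h, the log2 ratios were compressed, with a median interquartile range of 0.04 over all genes, against 0.26 on the other 9. When the background was refitted without spots marked for an uneven local background, these ranges were 0.28 and 0.29. The 3 narrow arrays stayed in the main results, and values without them or with the refitted background are given where a call differs. Replicate arrays of a time point correlated at r between 0.55 and 0.89 over all genes.

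At 12 h, 5 of the 8 carriers were called lower in toxin-treated midgut, where 4.3% of all genes were called lower. They were both carnitine/acylcarnitine carriers, the oxodicarboxylate carrier, the dicarboxylate carrier and pmp34, with falls of between 1.01 and 1.55 on the log2 scale. At 6 h only pmp34 was called, among 2.28% of all genes called lower, and at 18 h pmp34 and 1 carnitine/acylcarnitine carrier were called, among 1.24% of all genes. No carrier was called higher at any time, against 1.84%, 3.16% and 1.77% of all genes at 6, 12 and 18 h. The ratio was below 0 on all 4 arrays for 4 carriers at 6 h, 7 at 12 h and 4 at 18 h, as for 23.1%, 29.9% and 23.4% of all genes. The 8 carriers had a median log2 value of -0.39, -1.12 and -0.24 at 6, 12 and 18 h, while the median of all genes lay between 0.00 and 0.01. When the arrays were scaled to a common spread, only the oxodicarboxylate carrier was called at 12 h and none at 6 or 18 h. The means that lost their call at 12 h were still -1.85 to -1.15, with adjusted p of 0.0587 to 0.135 in limma. Those that lost it at 6 or 18 h were -1.68 to -1.16, with adjusted p of 0.0932 to 0.189 in limma. With median centring in place of loess the 5 calls at 12 h were kept and those at 6 and 18 h were lost.

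**Figure D1:**
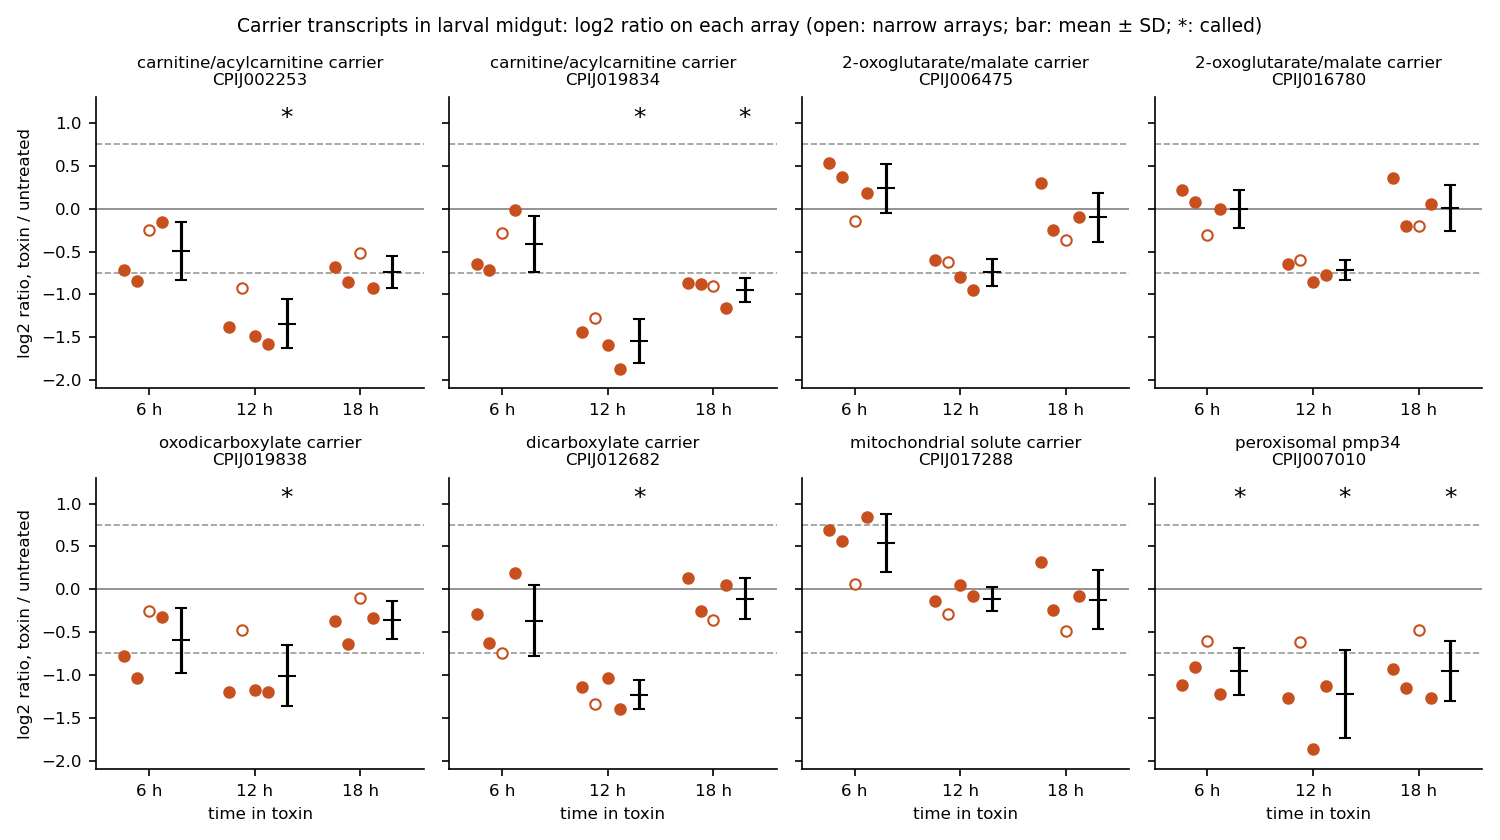
Each panel plots the log2 ratio of toxin over untreated (vertical axis) for 1 carrier at 6, 12 and 18 h (horizontal axis), with 4 arrays per time as points, the 3 narrow arrays as open points, and the mean ± SD as a black bar. Dashed lines mark a log2 value of 0.75 in either direction and asterisks mark calls. At 12 h the points of 7 carriers lie wholly below 0, and pmp34 lies wholly below 0 at all 3 times.

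The carnitine/acylcarnitine carrier CPIJ019834 gave the lowest mean of the 8 carriers at 12 h. Its log2 ratios at 12 h were -1.44, -1.28, -1.59 and -1.87 in replicates 1 to 4. The mean was -1.55 ± 0.25 (SD, n = 4), which is a level 2.92-fold lower in toxin-treated midgut (adjusted p = 4.68e-06, limma). All 4 arrays lay far from 0 and the call was kept when any single array was left out.

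At 6 h the same gene had log2 ratios of -0.64, -0.72, -0.28 and -0.02, with a mean of -0.42 ± 0.33 (SD, n = 4). The adjusted p was 0.0308 in limma but the size stayed under the 0.75 threshold. At 18 h the ratios were -0.86, -0.88, -0.91 and -1.16, with a mean of -0.95 ± 0.14 (SD, n = 4, adjusted p = 0.000397, limma). Replicate 4 at 18 h stood apart from 3 arrays that were within 0.05 of each other, and all 4 were below every array at 6 h. When loess was replaced by median centring, the mean at 18 h was -0.49 and the adjusted p in limma was 0.0573.

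CPIJ002253, named as the same carrier, had log2 ratios at 12 h of -1.38, -0.92, -1.48 and -1.58. The highest of them, -0.92, came from the narrow array. The mean was -1.34 ± 0.29 (SD, n = 4), 2.53-fold lower in toxin-treated midgut (adjusted p = 2.47e-05, limma). At 6 h its ratios were -0.72, -0.84, -0.25 and -0.15, a split into a lower and a higher pair that CPIJ019834 also had.

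At 18 h CPIJ002253 had ratios of -0.68, -0.85, -0.51 and -0.92 and a mean of -0.74 ± 0.18 (SD, n = 4, adjusted p = 0.00328, limma). This was just under the size required for a call. It was called at 18 h at -0.82 without the 3 narrow arrays (adjusted p = 0.00289, limma) and at -0.86 with the refitted background. With the deposited ratios it was called at -0.77.

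The pair moved together from array to array. Across the 12 arrays their log2 ratios correlated at r = 0.95, and at r = 0.89 after the mean of each time was removed. Points on the same array share their RNA pools, dyes and background. Whether the probes of the same-named genes also take up each other's transcripts could not be checked, because no probe sequences were used here. The spot bCPIJ019834 had mean log2 ratios of -0.40, -1.48 and -0.92 at 6, 12 and 18 h. The spot bCPIJ002253-SECONDRUNa had nearly the same, -0.41, -1.49 and -0.91, and their log2 brightness at 12 h was 13.75 and 13.74. The other spot of CPIJ019834 had -0.43, -1.62 and -0.98. Whether the calls of the pair come from separate transcripts was not tested.

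The 2-oxoglutarate/malate carriers CPIJ006475 and CPIJ016780 were lower on all 4 arrays at 12 h but just under the size required for a call. CPIJ006475 had log2 ratios of -0.60, -0.63, -0.80 and -0.95, with a mean of -0.74 ± 0.16 (SD, n = 4, adjusted p = 0.000844, limma). CPIJ016780 had ratios of -0.65, -0.60, -0.85 and -0.78, with a mean of -0.72 ± 0.12 (SD, n = 4, adjusted p = 0.000312, limma). The arrays of both genes sat closely around their means.

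Both were called at 12 h without the 3 narrow arrays, at -0.78 and -0.76, and with the refitted background, at -0.79 each, which took the number of carriers called at 12 h to 7. With the deposited ratios CPIJ006475 was called at 12 h, at -0.76, and CPIJ016780 was not, at -0.73. At 6 h the means were 0.24 ± 0.29 for CPIJ006475 and 0.00 ± 0.22 for CPIJ016780 (SD, n = 4 each), with arrays on both sides of 0. At 18 h the means were -0.10 ± 0.29 and 0.00 ± 0.27 (SD, n = 4 each), again with arrays on both sides of 0. Neither was called at 6 or 18 h under any alternative that was run. The ratios of the pair correlated at r = 0.94 over the 12 arrays and at r = 0.95 within times.

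CPIJ019838, the oxodicarboxylate carrier, had log2 ratios at 12 h of -1.20, -0.48, -1.18 and -1.19. The mean was -1.01 ± 0.36 (SD, n = 4), 2.02-fold lower in toxin-treated midgut (adjusted p = 0.000525, limma). The value of -0.48 came from the narrow array, while the other 3 arrays were within 0.02 of each other. With the refitted background the 4 arrays gave -1.21 ± 0.03 (SD, n = 4).

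At 6 h CPIJ019838 had ratios of -0.78, -1.04, -0.25 and -0.32 and a mean of -0.60 ± 0.38 (SD, n = 4, adjusted p = 0.0187, limma), under the size required. At 18 h the ratios were -0.37, -0.64, -0.10 and -0.34, with a mean of -0.36 ± 0.22 (SD, n = 4, adjusted p = 0.131, limma). All 12 arrays of this gene were below 0.

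CPIJ012682, the dicarboxylate carrier, was called at 12 h and differed from both other times. At 12 h its log2 ratios were -1.14, -1.34, -1.04 and -1.40, with a mean of -1.23 ± 0.17 (SD, n = 4), 2.35-fold lower in toxin-treated midgut (adjusted p = 6.32e-05, limma). At 6 h they were -0.28, -0.62, -0.74 and 0.19, with a mean of -0.37 ± 0.42 (SD, n = 4, adjusted p = 0.0901, limma), and at 18 h they were 0.14, -0.26, -0.36 and 0.05, with a mean of -0.11 ± 0.24 (SD, n = 4, adjusted p = 0.626, limma). The 12 h arrays did not overlap those of either other time.

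CPIJ017288, given only as a mitochondrial solute carrier, was the only carrier of the 8 above 0 on all 4 arrays at 6 h. Both 2-oxoglutarate/malate carriers were above 0 on 3 of 4 arrays then, and a difference between carriers was not tested. The substrate of CPIJ017288 is not stated. At 6 h its log2 ratios were 0.69, 0.56, 0.06 and 0.84, all above 0, with a mean of 0.54 ± 0.34 (SD, n = 4, adjusted p = 0.0179, limma) that was under the size required. The lowest, 0.06, came from the narrow array. The means were -0.11 ± 0.14 at 12 h and -0.12 ± 0.34 at 18 h (SD, n = 4 each), with arrays on both sides of 0 at both times. It was the only carrier of the 8 that was not lower on all 4 arrays at 12 h. Median centring in place of loess gave a call at 6 h, at 0.80.

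Pmp34 (CPIJ007010) was the only carrier of the 8 called at all 3 times. Its log2 ratios were -1.12, -0.90, -0.60 and -1.22 at 6 h, with a mean of -0.96 ± 0.27 (SD, n = 4, adjusted p = 0.00385, limma). At 12 h they were -1.27, -0.61, -1.86 and -1.13, with a mean of -1.22 ± 0.51 (SD, n = 4, adjusted p = 0.000528, limma). At 18 h they were -0.93, -1.15, -0.47 and -1.27, with a mean of -0.96 ± 0.35 (SD, n = 4, adjusted p = 0.00546, limma).

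The level of pmp34 in toxin-treated midgut was thus 1.94-fold, 2.33-fold and 1.94-fold lower than in untreated midgut at 6, 12 and 18 h. The array nearest to 0 was the narrow array at every time, and with the refitted background the means were -1.06, -1.32 and -1.22. Its arrays overlapped between every pair of times. The calls at 6 and 18 h were kept when any single array was left out, but were lost with median centring in place of loess, at -0.68 and -0.56.

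The difference between times was tested by contrasts in the same linear model, in which a constant dye bias cancels. Between 12 and 6 h, 4 of the 8 carriers had a called fall, among 0.4% of all genes, and none had a called rise, against 0.521%. CPIJ019834 fell by 1.13 (SE 0.16, adjusted p = 0.00766, limma) and CPIJ006475 by 0.98 (SE 0.17, adjusted p = 0.0145, limma). CPIJ012682 fell by 0.87 (SE 0.19, adjusted p = 0.0411, limma) and CPIJ002253 by 0.85 (SE 0.18, adjusted p = 0.0364, limma). The first pair kept the call when any single array was left out, while the call of CPIJ012682 was lost in 7 and that of CPIJ002253 in 8 of the 12 leave-outs. All 4 calls were lost with median centring in place of loess and when the arrays were scaled to a common spread. In those settings the differences were still -1.33 to -0.84, and the calls failed on the adjusted p in limma.

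All 8 carriers had a lower mean ratio at 12 h than at 6 h. For 6 of them the 4 arrays at 12 h did not overlap the 4 at 6 h, and 5.84% of all genes did this in the same direction. Pmp34 differed least, by -0.26 with a 95% interval of -0.82 to 0.30.

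Between 18 and 12 h the dicarboxylate carrier CPIJ012682 had a called rise of 1.12 (SE 0.19, adjusted p = 0.00649, limma), where 1.72% of all genes were called higher. No carrier was called lower, against 0.603%. It kept this call when any single array was left out. For 6 of the other 7 carriers the mean was also higher at 18 h, by 0.26 to 0.72, without a call. CPIJ017288 differed by -0.01. Arrays at 18 h did not overlap those at 12 h for 5 carriers, and 7.29% of all genes were higher at 18 h in this way.

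Between 18 and 6 h none of the 8 carriers was called in limma, against 0.972% of all genes called lower and 1.84% called higher. Only CPIJ019834 had 4 arrays at 18 h below all 4 at 6 h, as had 6.76% of all genes. The differences ran between -0.66 and 0.26. The largest in size were -0.66 for CPIJ017288 (adjusted p = 0.0628, limma) and -0.53 for CPIJ019834 (adjusted p = 0.0794, limma). CPIJ017288 was called lower at 18 h once either replicate 3 at 6 h or replicate 1 at 18 h was left out. The interval for CPIJ016780, with a difference of 0.01, was -0.30 to 0.32, so an unequal response of that size was not detectable.

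The levels in each channel show what lay behind the ratios. They are normalized log2 intensities and are compared for each gene with itself. At 12 h CPIJ019834 had a level of 12.58 ± 0.19 in toxin-treated midgut and 14.13 ± 0.07 in untreated midgut (SD, n = 4 each). At 6 h it had 13.09 ± 0.27 in toxin-treated and 13.50 ± 0.06 in untreated midgut, and at 18 h 12.05 ± 0.15 in toxin-treated and 13.00 ± 0.03 in untreated midgut. The untreated level of this gene was thus highest at 12 h.

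**Figure D2:**
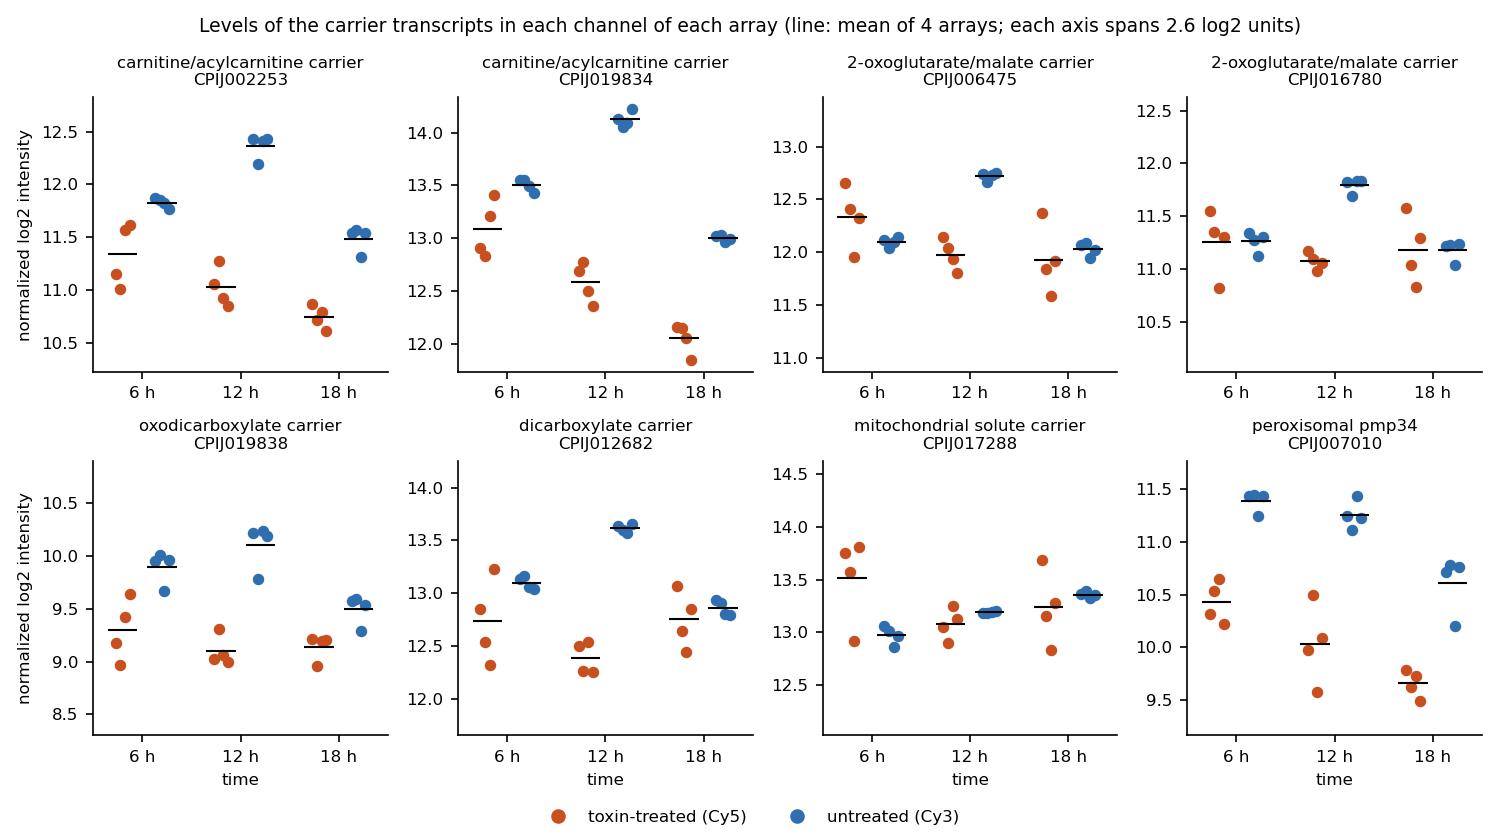
Each panel plots the normalized log2 intensity (vertical axis) of 1 carrier in toxin-treated midgut (orange, left) and untreated midgut (blue, right) at 6, 12 and 18 h (horizontal axis), with 4 arrays per group as points and their mean as a line. In 6 of the 8 panels the mean untreated level is highest at 12 h, and for pmp34 the toxin-treated points lie below the untreated ones at every time.

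The mean untreated level was also highest at 12 h for 5 of the other 6 mitochondrial carriers, all but CPIJ017288. Relative to 6 h, the level of the 2-oxoglutarate/malate carrier CPIJ006475 at 12 h differed by -0.36 in toxin-treated and by 0.62 in untreated midgut. For the dicarboxylate carrier CPIJ012682 these differences were -0.35 in toxin-treated and 0.52 in untreated midgut. Its called rise in ratio between 18 and 12 h was made up of 0.37 in toxin-treated and -0.76 in untreated midgut. In each case the untreated channel differed by more than the toxin-treated one. The sign on the toxin side between 12 and 6 h depended on the normalization. Median centring of each channel, chosen after the data had been seen, gave 0.076 for CPIJ006475 and 0.12 for CPIJ012682. The median gene differed by 0.12 on the toxin side in that setting, so neither carrier was clearly above it.

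The untreated level on all 4 arrays at 12 h was above all arrays of the other times for 5 carriers, as for 6.52% of all genes. These were both carnitine/acylcarnitine carriers, both 2-oxoglutarate/malate carriers and the dicarboxylate carrier. No toxin-treated level did this, against 0.876% of all genes. With quantile normalization of all 24 channels, chosen after the data had been seen, the untreated levels of 6 carriers did so, among 12.1% of all genes. With median centring of each channel none did, against 0.39% of all genes. In that setting the mean untreated level of each of the 8 carriers was higher at 12 h than at 6 h, by 0.32 to 1.21, where the median gene differed by 0.08. For pmp34 this turned the direction, which was -0.14 in the main normalization. No test was made of a single channel over time, because slide and time cannot be told apart.

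The level of pmp34 was 10.43 ± 0.19, 10.04 ± 0.38 and 9.66 ± 0.13 in toxin-treated midgut at 6, 12 and 18 h (SD, n = 4 each). In untreated midgut it was 11.39 ± 0.10, 11.26 ± 0.14 and 10.61 ± 0.28 (SD, n = 4 each). Between 18 and 6 h the level differed by -0.77 in toxin-treated and -0.78 in untreated midgut, and with median centring of each channel by -0.40 in toxin-treated and -0.50 in untreated midgut. Between 12 and 6 h the main normalization gave -0.39 in toxin-treated and -0.14 in untreated midgut, but median centring gave -0.018 in toxin-treated and 0.32 in untreated midgut, so that step has no settled direction in the untreated channel.

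Toxin-treated and untreated levels did not overlap at any time for both carnitine/acylcarnitine carriers, the oxodicarboxylate carrier and pmp34. For both 2-oxoglutarate/malate carriers and the dicarboxylate carrier they were apart at 12 h only, and for CPIJ017288 they overlapped at all 3 times. Thus 4 of the 8 carriers were lower without overlap at 6 h, 7 at 12 h and 4 at 18 h, among 10.5%, 16.5% and 10.5% of all genes. The spread between replicates lay mostly on the toxin side. In 20 of the 24 combinations of carrier and time the SD was larger for toxin-treated than for untreated midgut, and 69.9% to 75.2% of all genes had this order at each time.

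Spots of one gene gave like values, with 2 exceptions in size. CPIJ002253 and CPIJ016780 have 2 sets of spots each, named a and b, and the other 6 genes have 1. For CPIJ002253 the mean log2 ratio at 12 h was -1.50 in set a and -1.19 in set b, and at 18 h -0.89 and -0.59. For CPIJ016780 it was -0.59 in set a and -0.85 in set b at 12 h. Both sets of a gene had the same direction at 12 h. CPIJ002253 at 18 h was past the size of 0.75 in set a and under it in set b, and CPIJ016780 at 12 h the other way round. Spots of a set that differ only in a leading letter of their name agreed within 0.32, with a median difference of 0.04 over 30 comparisons.

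Among the 28 pairs of carriers, the correlation of log2 ratios over the 12 arrays ran between -0.24 and 0.95, with a median of 0.61. With the refitted background they ran between 0.08 and 0.98, with a median of 0.66. The lowest in the main values, that of CPIJ017288 with pmp34, turned to 0.24 there. After the mean of each time was removed, the oxodicarboxylate carrier was still close to the carnitine/acylcarnitine carrier CPIJ002253 (r = 0.93, and 0.86 with the refitted background), and the dicarboxylate carrier to CPIJ017288 (r = 0.81, and 0.87 with the refitted background). CPIJ017288 was also close to CPIJ016780 (r = 0.73, refitted 0.89) and CPIJ006475 (r = 0.70, refitted 0.81). Pmp34 had the lowest r within times, with the dicarboxylate carrier (r = -0.63, refitted -0.30) and CPIJ017288 (r = -0.62, refitted -0.06). The dicarboxylate carrier had r = 0.11 with CPIJ002253 within times, and 0.48 with the refitted background.

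Among 1801 other genes called at 1 or more times, the one with the ratio pattern nearest to pmp34 over the 12 arrays was CPIJ000372, an L-xylulose reductase, with r = 0.94 and log2 values of -0.75, -1.26 and -0.90 at 6, 12 and 18 h. With the refitted background its r was 0.72, and the 4 next nearest genes, with r of 0.89 to 0.92, had 0.45 to 0.53. These 4 were a juvenile hormone-inducible protein (CPIJ007628), a multicopper oxidase (CPIJ020028), a carboxylesterase (CPIJ002785) and a gene of unstated function (CPIJ019996). The likeness to pmp34 was thus smaller with the refitted background. These genes were chosen for the highest r in the main values, so a smaller r in another version is likely. The cause was not tested.

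The 5 genes nearest to the mean of the 7 mitochondrial carriers had r of 0.94 to 0.96, and 0.91 to 0.95 with the refitted background. One was CPIJ007967, named as tom20, a receptor of the mitochondrial protein import machinery, with log2 values of -0.10, -0.94 and -0.21 at 6, 12 and 18 h. The other 4, CPIJ008180, CPIJ000194, CPIJ009348 and CPIJ007734, had no stated function. All 5 had their lowest value at 12 h, which largely follows from choosing them by likeness to that mean.

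Lists of related genes were taken by name from the study's table of 3780 regulated genes, so they too were chosen on these samples and their counts are a description. Of 7 further mitochondrial carriers, 2, 3 and 1 were called lower at 6, 12 and 18 h, where 2.28%, 4.3% and 1.24% of all genes were. A single one was called higher, at 6 and 12 h, where 1.84% and 3.16% of all genes were called higher. The 18 h call was lost without replicate 1, 2 or 4 of that time, and a second gene was called higher at 6 h without replicate 3 of that time. Their median log2 values were -0.47, -0.70 and -0.43 at 6, 12 and 18 h.

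The tricarboxylate transport protein CPIJ013697, which carries citrate out of mitochondria in other animals, was called lower at all 3 times, at -1.18 ± 0.32, -1.57 ± 0.47 and -0.90 ± 0.50 (SD, n = 4 each). The solute carrier CPIJ002591 was called lower at 6 h (-0.97 ± 0.24) and 12 h (-1.40 ± 0.40) and had -0.51 ± 0.26 at 18 h (SD, n = 4 each). The glutamate carrier CPIJ013684 was called lower at 12 h only, at -0.78 ± 0.33 (SD, n = 4).

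CPIJ004795, a mitochondrial carrier of unstated substrate, went the other way. It was called higher at 6 h (1.11 ± 0.23) and 12 h (0.91 ± 0.10) and had 0.20 ± 0.24 at 18 h (SD, n = 4 each). The uncoupling protein CPIJ004342, which lets protons back into the matrix, had log2 values of 0.63, 0.33 and -0.07 without a call. CPIJ011250 and CPIJ019242, named only as mitochondrial carriers, lay between -0.38 and -0.70 without a call.

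**Figure D3:**
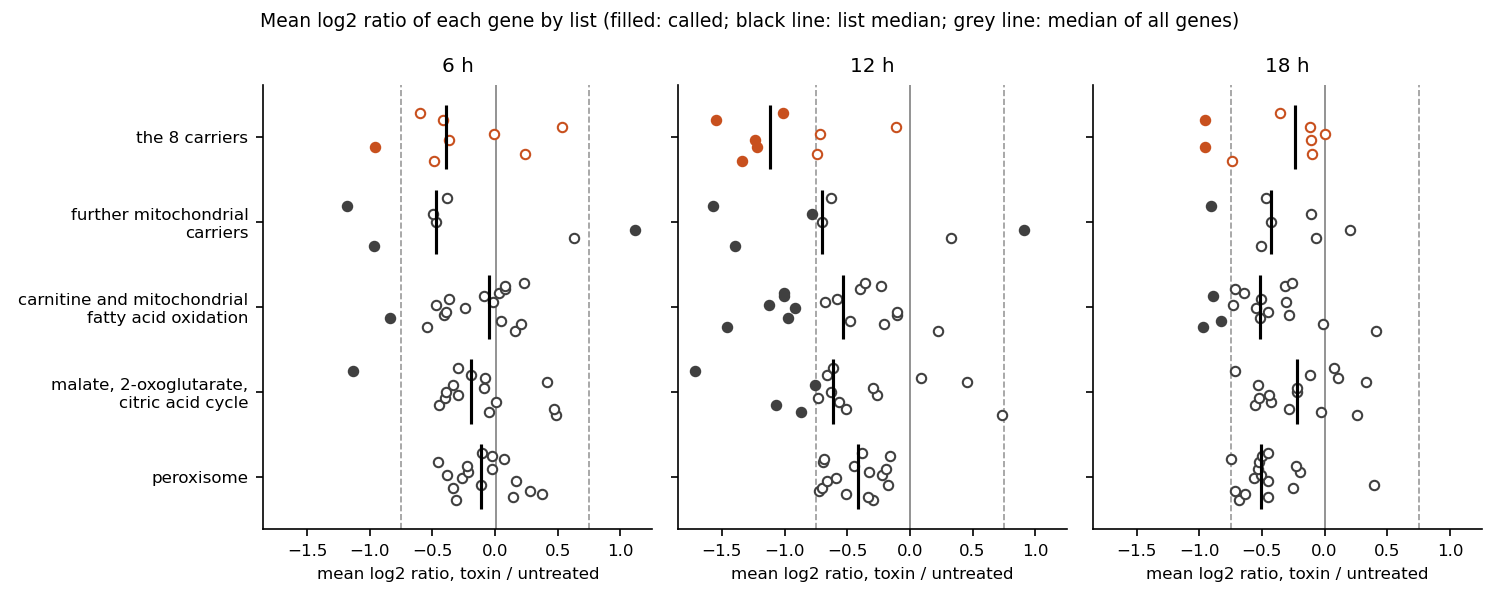
Each panel plots, for 1 time, the mean log2 ratio of toxin over untreated (horizontal axis) of every gene in 5 lists (rows), with called genes filled, the list median as a black line, the median of all genes as a grey line and the 0.75 threshold dashed. The 8 carriers have their lowest median, -1.12, at 12 h, and none of the 16 peroxisomal genes is filled at any time.

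The enzymes on either side of the carriers were lower too, in part. Of 16 genes of carnitine metabolism and mitochondrial fatty acid oxidation, 1, 6 and 3 were called lower at 6, 12 and 18 h and none was called higher, where 2.28%, 4.3% and 1.24% of all genes were called lower. Over the alternatives with the fold threshold the count ran over 2 to 7 at 12 h and 0 to 7 at 18 h. The largest value was -1.46 ± 0.21 at 12 h and -0.97 ± 0.10 at 18 h (SD, n = 4 each) for enoyl-CoA hydratase CPIJ002685, which hydrates the double bond in the oxidation cycle. At 6 h it was -0.84 ± 0.13 (SD, n = 4) for 3-hydroxyacyl-CoA dehydrogenase CPIJ006479. The median of the list was -0.05, -0.53 and -0.51 at 6, 12 and 18 h. The thiolase CPIJ002342 and the acyl-CoA dehydrogenases CPIJ008217 and CPIJ009148 were saturated in toxin-treated midgut on 3 or 4 arrays at each time. At 12 h both dehydrogenases were also saturated in untreated midgut on 4 arrays. Saturation can hide a change, so these genes say little about a fall.

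Of 15 genes of malate, 2-oxoglutarate and citric acid cycle metabolism, 1, 4 and 0 were called lower at 6, 12 and 18 h and none higher in limma. Of all genes, 2.28%, 4.3% and 1.24% were called lower at these times, and 1.84%, 3.16% and 1.77% higher. Not all genes of the list were lower. Its highest values were 0.48, 0.73 and 0.33 at 6, 12 and 18 h, without a call. The count at 12 h ran over 1 to 6 across the alternatives with the fold threshold. It was 6 without replicate 2 at 12 h and 2 without replicate 4 at 12 h, and 1 gene was called higher at 12 h without replicate 2 or 3 of that time. CPIJ018673, the alpha subunit of succinyl-CoA ligase, had the largest value at each time, with called falls to -1.14 ± 0.26 at 6 h and -1.71 ± 0.12 at 12 h, and -0.72 ± 0.12 at 18 h without a call (SD, n = 4 each). The median of the list was -0.19, -0.61 and -0.22. The malate dehydrogenases CPIJ008366 and CPIJ016732 and the citrate synthase CPIJ019861 were saturated on part of the arrays, which can hide a change.

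None of 16 peroxisomal genes was called at any time in limma. Of all genes, 2.28%, 4.3% and 1.24% were called lower at 6, 12 and 18 h, and 1.84%, 3.16% and 1.77% higher. A count of 0 of 16 is near those shares. The medians of the list were -0.11, -0.41 and -0.50 at 6, 12 and 18 h. The largest value at 6 h was -0.46 ± 0.14 for CPIJ013714, named only as peroxisomal. At 12 h it was -0.73 ± 0.35 for the acyl-CoA oxidase CPIJ003061 and at 18 h -0.74 ± 0.16 for the 2-hydroxyacyl-CoA lyase CPIJ014172 (SD, n = 4 each). Several lay close to the threshold, and up to 5 at 12 h, without replicate 2 of that time, and 6 at 18 h, with the scanner's ratios, were called lower under other settings. The acyl-CoA oxidase CPIJ006187 and the multifunctional enzyme CPIJ001576 were saturated on part of the arrays, which can hide a change. Whether pmp34 differed from these genes was not tested.

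Markers of other tissues were measured in the same RNA. All 9 midgut markers (amylases, maltase, aminopeptidases N and peritrophins) were well above background, with the amylases and maltase mostly saturated. The midgut markers had median log2 values of -0.21, -0.10 and -0.64 at 6, 12 and 18 h. At 12 h 1 was called lower and 1 higher, and at 18 h 1 was called lower, a count that was 0 without replicate 1 or 2 and 5 without replicate 4 of that time. The gene called higher was alpha-amylase 1 (CPIJ008079), at 0.90, which was saturated in toxin-treated midgut on 4 arrays at 12 h. The medians at 12 and 18 h were the values of alpha-amylase B (CPIJ005060), saturated in both channels on 4 arrays. That call and these medians therefore do not measure the size of a change.

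Fat body and haemolymph protein markers varied widely in toxin-treated midgut. Their median log2 values were 0.47, -1.04 and -1.47 at 6, 12 and 18 h, beside -0.39, -1.12 and -0.24 for the 8 carriers. Their summed linear intensity at 12 h ranged over 42239 to 281678 in toxin-treated and 102002 to 189965 in untreated midgut, with 1 of 10 genes called lower. The sums were 15635 to 180526 in toxin-treated and 38712 to 52898 in untreated midgut at 6 h, with none called, and 59031 to 189837 in toxin-treated and 166574 to 220157 in untreated midgut at 18 h, with 1 called lower. The sums include an arylphorin, CPIJ009033, that was saturated on part of the arrays. Over the leave-outs 0 to 3 of these markers were called lower at 12 h, with 3 without replicate 2 and 0 without replicate 3 or 4 of that time, and 0 to 2 at 18 h, with 0 without replicate 1 or 4 of that time.

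The summed intensity of the 8 carriers at 12 h was 28225 to 31374 in toxin-treated and 56305 to 61099 in untreated midgut, without overlap. None of 4 muscle, 2 haemocyte and 9 cuticle markers was called at any time in limma. At 12 h the summed muscle markers were 10288 to 14220 in toxin-treated and 9565 to 10475 in untreated midgut. No marker list was at 0, and the part of other tissues in the carrier values was not tested.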

How the data were processed

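Midgut RNA of 12 two-colour arrays was analysed. Per the file headers, the deposited intensity columns hold median pixels of each spot and its local background, which the authors obtained with Agilent Feature Extraction 11.5.1.1 and deposited without normalization. The log10 values the authors deposited are the software's ratios of dye-normalized Cy5 over Cy3. The log2 values the authors deposited are background-corrected and loess-normalized ratios, matched here within 4.98e-08 by normexp with an offset of 16. Depth does not apply to arrays, and their number limits the precision.

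Here, normexp (offset 50) was applied to median signals, outlying spots (6 to 62 per array) were set to missing, and loess was run within arrays without the 1417 control spots. Spots of a gene were averaged. A linear model with 1 mean per time was fitted to all 19751 genes and 12 arrays (lmFit, eBayes, 9 residual degrees of freedom), with contrasts between times, in R 4.3.3 with limma 3.58.1. Each test had its own Benjamini-Hochberg adjustment over all genes. Channel levels were taken after Aquantile normalization. Tests were checked on simulated data. Figures used matplotlib 3.10.9.

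The members, the lists and the rules were chosen with earlier results of these data known. The text names all 8 carriers, all 7 further mitochondrial carriers, the gene of largest size in each list at each time, and the 5 genes most like pmp34 and the 5 most like the mean of the other 7 by Pearson's r over 12 arrays. Some saturated genes of the lists are named as well. Gene names are those of the study's tables. The reference table matched 0 of the 8 identifiers, so no coordinates or sequences are given. The alternatives changed the background correction, the normalization, the filters, the probes used, the source of the ratios, the model and the arrays included.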

Additional observations from a re-analysis of the deposited data

Results flagged for a closer look

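Outlying arrays within a time point were looked for with Dixon's ratio, which chance passes in about 1 of 20 groups, over 24 groups of 4 arrays. The ratio of CPIJ019834 at 18 h passed it, with -1.16 in replicate 4 against -0.91 to -0.86 in the other 3, and remained called lower without that array. The ratio of CPIJ019838 at 12 h passed it, with -0.48 in replicate 2, the narrow array, against -1.20 to -1.18 in the other 3.

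The response differed between 12 and 6 h in 4 carriers, by -1.13 for CPIJ019834, -0.98 for CPIJ006475, -0.87 for CPIJ012682 and -0.85 for CPIJ002253, each with 4 arrays at 12 h below all 4 at 6 h. It differed between 18 and 12 h in CPIJ012682, by 1.12, with 4 arrays at 18 h above all 4 at 12 h.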

How the results depend on the processing

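Every call at a time point was kept when any single array was left out, and under the other settings except median centring in place of loess and scale normalization between arrays. Over the settings other than leave-outs, 353 values of carriers at a time point kept their direction and call, 30 gained a call, 10 lost one and 15 changed sign, and none of those that changed sign was called in either analysis.

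Median centring left 5 carriers called lower at 12 h but 0 at 6 h, 0 at 18 h and 0 between 12 and 6 h. Scale normalization left 1 called lower at 12 h, CPIJ019838, while 0 were called at 6 h, 0 at 18 h and 0 in the contrasts of 12 with 6 h and of 18 with 12 h. It called 166, 325 and 91 genes in all at 6, 12 and 18 h. The cause was not tested in either case. With the deposited ratios or an offset of 16, 6 carriers were called lower at 12 h and 3 at 18 h. Plain subtraction, no background correction and the scanner's ratios each gave 7 at 12 h and 3 at 18 h. Plain subtraction of the background called 2 at 6 h, and the brightest probe called 2 between 18 and 12 h. Without a fold threshold 4 were called lower at 6 h and 4 differed between 18 and 12 h. Without the 3 narrow arrays 3 differed between 18 and 12 h.

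No clear pairing of arrays by replicate number was seen. The deviations of same-numbered arrays correlated at -0.24 to 0.42, above 0.1 in 4 of 12 pairs. Those of differently numbered arrays correlated at -0.36 to 0.54, above 0.1 in 10 of 36 pairs. With so few arrays a time, a pairing could have been missed. With the replicate number as a block, 2 carriers differed between 12 and 6 h instead of 4, and the counts at each time were the same.

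With single arrays left out, the number of carriers called lower was 1 at 6 h, 5 to 7 at 12 h and 2 to 3 at 18 h. The number that differed between 12 and 6 h ranged over 2 to 5. It was 2 without replicate 1 or 4 at 6 h, replicate 1, 3 or 4 at 12 h, or replicate 2 at 18 h. Between 18 and 12 h it ranged over 1 to 3, above 1 without replicate 2 at 12 h or replicate 2 or 3 at 18 h, and between 18 and 6 h over 0 to 1.

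The values that changed sign were these. CPIJ016780 at 18 h was -0.10 with plain subtraction, -0.082 without background correction, -0.011 with an offset of 16 or the deposited ratios, -0.069 with the refitted background, -0.24 with scale normalization, -0.14 with the scanner's ratios and -0.12 to 0.074 over leave-outs. At 6 h it was 0.27 with median centring, 0.0013 with the scanner's ratios, 0.097 without the narrow arrays and -0.078 to 0.097 over leave-outs. With median centring CPIJ017288 was 0.092 at 12 h and 0.30 at 18 h, CPIJ006475 0.38 at 18 h and CPIJ012682 0.34 at 18 h. CPIJ017288 at 18 h was 0.0040 without the narrow arrays and -0.27 to 0.0040 over leave-outs. Its difference between 18 and 12 h was 0.014 without background correction, 0.0064 with an offset of 16, 0.0071 with the deposited ratios, 0.21 with median centring, 0.062 with the brightest probe, 0.057 without the narrow arrays and -0.16 to 0.11 over leave-outs. For pmp34 the difference between 12 and 6 h was 0.0024 with scale normalization, and that between 18 and 12 h was -0.020 with scale normalization and -0.018 with the scanner's ratios.

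With 4 arrays a time, the 95% interval of a carrier's ratio reached 0.22 to 0.40 on either side, so smaller differences were not detectable.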
